A study of Mus musculus with 6 samples.

Results

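Mitochondrial fatty acid oxidation was followed through 35 named genes, out of 21367 genes measured in mouse kidney after renal ischemia-reperfusion injury (IRI). The genes were chosen by name: the carnitine shuttle, the enzymes that activate fatty acids to acyl-CoA, the enzymes of beta-oxidation, the electron transfer flavoproteins and 3 genes that set the choice of fuel. All 35 were found in the table and all passed the filter on low counts, which kept 13036 genes. Each of the 6 libraries holds the kidney RNA of a single mouse, 3 of them *Ptpn6*+/mev and 3 wild-type. Heterozygous *Ptpn6*+/mev animals have 1 allele of viable motheaten (mev), a splice-site mutation of the gene for the phosphatase SHP-1, on a C57BL/6 background. Their genotype is labelled SHP1 knockdown, and that of the wild-type mice, which were littermates, is labelled wide type. Every mouse was 7 weeks old, lost its right kidney, had its left kidney clamped for 34 min and was killed 24 h later. No library came from an uninjured kidney, so the comparison is between genotypes after injury, and it asks which transcripts differ when SHP-1 is insufficient. The mutation is carried by every cell of the mouse and the RNA came from left kidney tissue in bulk, so fewer cells of a type and less RNA per cell cannot be told apart.

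Long-chain fatty acids are activated to acyl-CoA, passed to carnitine by carnitine palmitoyltransferase 1 (CPT1) at the outer mitochondrial membrane, carried through the inner membrane, and passed back to CoA by CPT2. Beta-oxidation then shortens the chain in rounds of dehydrogenation, hydration, a further oxidation and thiolysis, and the electrons of the first dehydrogenation reach ubiquinone through electron transfer flavoprotein. Tubular cells, above all those of the proximal tubule, are rich in mitochondria and use fatty acids as a main fuel, and the nuclear receptor PPARα is a known activator of many of these genes.

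The gene that differs by design, *Ptpn6*, measured 11.85, 14.66 and 13.61 FPKM (fragments scaled to transcript length and to the fragments of the library) in *Ptpn6*+/mev mice. In wild-type mice it measured 17.47, 10.87 and 15.44, so the groups overlapped through wild-type replicate 2, with a log2 fold change of -0.19 and a 95% interval from -0.57 to 0.19. Without that library the log2 fold change was -0.34 (edgeR's quasi-likelihood test, adjusted p = 0.201, range over the alternatives 0.201 to 0.938) and the groups were apart. A splice-site mutation need not alter the amount of transcript, so this level does not check the labels. Depth was 10271590 to 12361745 counts per library, and the 35 genes had 157 to 16586 counts each, so counting error is small beside the spread between mice. Wild-type replicate 2 stood apart from the other libraries, with a TMM scaling factor of 0.9285 against 0.994 to 1.029, and the main values that move with it are given with and without it.

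Transcripts of the pathway were mostly lower in *Ptpn6*+/mev kidneys, by small amounts. The log2 fold change, *Ptpn6*+/mev against wild-type throughout, was below 0 for 31 of the 35 genes (28 on the FPKM scale), against 50.5% of all tested genes, and for 25 without wild-type replicate 2. Its median was -0.278, against -0.0024 over all tested genes, whose middle 50% lay between -0.153 and 0.139. None of the 35 passed the threshold of 0.05 on the adjusted p of edgeR's quasi-likelihood test in either direction, where 0.069% of all tested genes were called lower and 0.069% higher. At an unadjusted p under 0.05 in the same test, 14 of the 35 were lower, against 6.71% of all tested genes, and 0 were higher, against 5.53%. The 14 were *Slc22a5*, *Cpt2*, *Crat*, *Acsm1*, *Acadvl*, *Acads*, *Acad9*, *Acad10*, *Acad11*, *Hadh*, *Eci1*, *Decr1*, *Etfb* and *Mlycd*.

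Other tests on the same counts called some of these genes. edgeR's exact test called 4 lower at an adjusted p under 0.05, against 1.78% of all tested genes: *Acsm1*, *Acad10*, *Acad11* and *Eci1*. DESeq2's Wald test called those 4 and *Acadvl*, against 1.88%.

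In FPKM, 12 of the 35 genes were lower in every *Ptpn6*+/mev mouse than in every wild-type mouse, against 6.38% of all tested genes. These were *Slc22a5*, *Cpt2*, *Acsm1*, *Acadvl*, *Acads*, *Acad10*, *Acad11*, *Hadh*, *Hadha*, *Eci1*, *Decr1* and *Etfb*. In the opposite direction 0 of 35 were apart, against 14.0% of all tested genes. FPKM values sat slightly higher in *Ptpn6*+/mev mice for genes in general, with a median log2 difference of 0.062 to 0.076 over all tested genes, depending on the pseudocount.

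**Figure D1:**
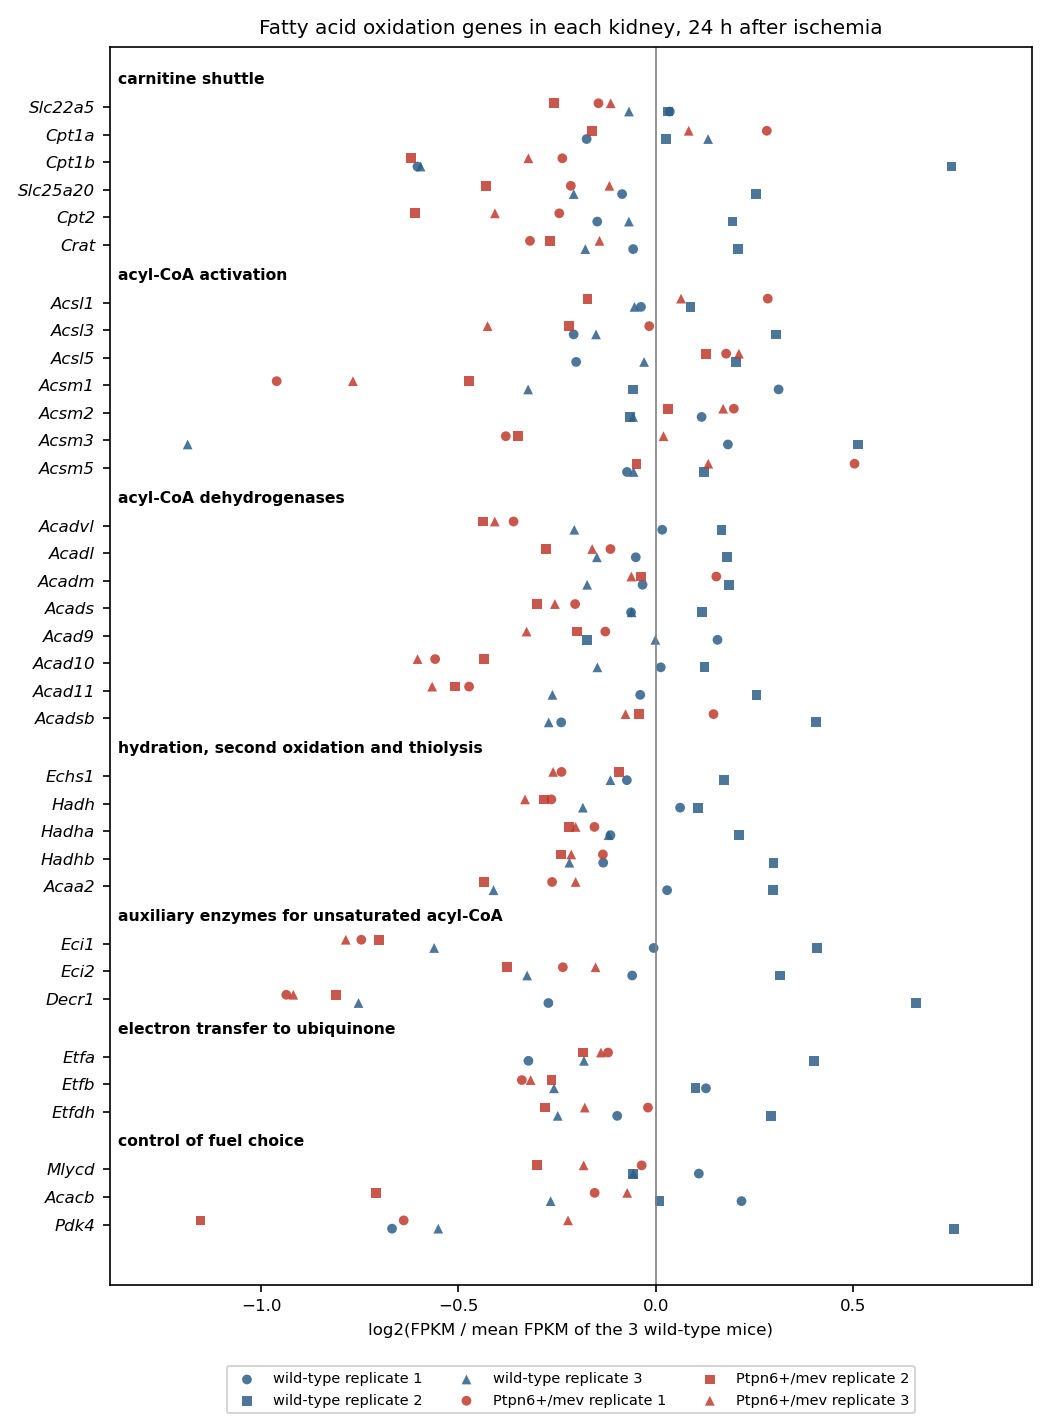
Each point is 1 gene in 1 mouse, as log2 of its FPKM over the mean FPKM of the 3 wild-type mice, with genes grouped by step of the pathway. Wild-type replicate 2 (blue squares) is the highest of the 6 libraries for 24 of the 35 genes, and wild-type replicate 3 often lies beside the *Ptpn6*+/mev mice.

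The high values came mostly from 1 library. Wild-type replicate 2 was the highest of the 6 libraries for 24 of the 35 genes, against 17.3% of all tested genes. The *Ptpn6*+/mev mice reached 3752, 3471 and 3671 FPKM summed over the 35 genes. The sums of the wild-type mice were 4088, 4583 and 3605 FPKM, in the order of their numbers. The sums of the groups overlapped, since wild-type replicate 3 fell inside the range of the *Ptpn6*+/mev mice. With *Acsm2*, the most abundant of the 35, left out, the sums were 2585 to 2757 FPKM in *Ptpn6*+/mev mice and 2772 to 3755 in wild-type mice. These were apart only narrowly, between 2757 and 2772, and the sum without *Acsm2* was not among the planned results. Without wild-type replicate 2 the median log2 fold change of the 35 genes was -0.142, and without wild-type replicate 3 it was -0.380.

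Leaving out wild-type replicate 2 also moved the calls. In edgeR's quasi-likelihood test without it, *Acad10* passed the threshold as lower (adjusted p = 0.0489, against 1.09% of genes called lower) and *Acsl5* as higher (adjusted p = 0.0302, against 0.706% called higher). Over all 15 alternatives the adjusted p ranged from 0.00527 to 0.466 for *Acad10* and from 0.0302 to 0.975 for *Acsl5*. At an unadjusted p under 0.05 there were then 12 of the 35 lower, against 8.89% of genes, and 1 higher, against 8.36%. Without wild-type replicate 3, *Eci1* was the single gene of the 35 called lower (edgeR's quasi-likelihood test, adjusted p = 0.0434, range over the alternatives 0.0261 to 0.583), against 0.387% of genes. The count of genes lower at an unadjusted p under 0.05 was 21 without wild-type replicate 3, against 8.17% of genes, and 8 without *Ptpn6*+/mev replicate 3, against 4.55%. The count of genes apart and lower in FPKM was 21 without wild-type replicate 3, against 10.7%.

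Promoter sequences are shown for 4 of the genes with the lowest p-values and, for contrast, for *Cpt1a*, whose groups overlapped. They are RefSeq promoters on GRCm38.p6, the 130 bases before the annotated start and the 10 bases from it, 5′ to 3′ on the strand of the gene. The windows of *Acsm1* and *Cpt1a* lie inside the genes as GENCODE annotates them, which begin at chr7:119607026 and chr19:3322334. Capitals mark AGGTCA, the half-site of many nuclear receptors, read on either strand (TGACCT), and CGCATGCG, the core of the site of the factor NRF1.
Acad10, chr5:121660501-121660640, minus strand: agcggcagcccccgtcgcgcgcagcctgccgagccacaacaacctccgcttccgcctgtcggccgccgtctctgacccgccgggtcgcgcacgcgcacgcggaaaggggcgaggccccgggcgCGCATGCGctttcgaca
Acsm1, chr7:119617682-119617821, plus strand: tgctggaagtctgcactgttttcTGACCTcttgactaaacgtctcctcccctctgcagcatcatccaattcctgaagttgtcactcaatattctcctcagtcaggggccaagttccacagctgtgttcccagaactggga
Acadvl, chr11:70015419-70015558, minus strand: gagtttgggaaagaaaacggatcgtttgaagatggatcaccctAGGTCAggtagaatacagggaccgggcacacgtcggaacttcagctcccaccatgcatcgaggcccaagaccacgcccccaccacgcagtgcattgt
Eci1, chr17:24426553-24426692, plus strand: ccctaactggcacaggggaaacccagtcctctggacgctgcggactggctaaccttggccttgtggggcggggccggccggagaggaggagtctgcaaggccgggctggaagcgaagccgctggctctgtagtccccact
Cpt1a, chr19:3323171-3323310, plus strand: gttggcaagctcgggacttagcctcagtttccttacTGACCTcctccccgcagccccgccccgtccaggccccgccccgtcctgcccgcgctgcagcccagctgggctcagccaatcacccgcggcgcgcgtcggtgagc

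These windows differ in base composition. G and C made up 75.7% of the *Acad10* window, 72.1% of *Cpt1a*, 67.1% of *Eci1* and 55.7% of *Acadvl*, and *Acsm1* was lower still. Over windows of 300 bases (250 before the start and 50 from it), the table held promoters of 30 of the 35 genes, 32 windows in all. On either strand, AGGTCA occurred in the windows of 6 genes (*Acacb*, *Acadm*, *Acadvl*, *Acsm1*, *Cpt1a* and *Echs1*), 18.8% of the windows, against 16.3% of all 32851 promoters. The sequence CGCATGCG occurred in those of 3 genes (*Acad10*, *Acadm* and *Etfdh*), against 1.87% of all promoters. The PPAR-type direct repeat AGGTCANAGGTCA, which contains the half-site, was in 0 of the 32 windows, against 0.0396% of all promoters. The element of the estrogen-related receptors, TNAAGGTCA, which also contains it, was in 0, against 1.28%. These longer elements are so rare in all promoters that 0 in 32 windows does not set the genes apart from others. Sites with other letters or outside the windows were not searched. The matches are letters in a window, and no binding was measured.

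Within the carnitine shuttle *Cpt2* had the lowest p-value. *Cpt2* (chr4:107903981-107923610 on GRCm38, minus strand), whose enzyme sits at the inner membrane, measured 84.3, 65.42 and 75.3 FPKM in *Ptpn6*+/mev mice and 90.11, 114.27 and 95.26 in wild-type mice. Every *Ptpn6*+/mev mouse was below every wild-type mouse, with a log2 fold change of -0.49 ± 0.15 (SE, n = 3 per group) and an adjusted p of 0.222 in edgeR's quasi-likelihood test. *Cpt1a*, the main CPT1 of kidney and the step at which entry is regulated, measured 146.96, 108.06 and 128.13 FPKM in *Ptpn6*+/mev mice and 107.11, 123.19 and 132.57 in wild-type mice. The groups overlapped, and the log2 fold change was 0.01, with a 95% interval from -0.30 to 0.31 that takes in the median of the 35 genes. The carnitine carrier of the plasma membrane, *Slc22a5*, was at 51.51 to 56.90 FPKM in *Ptpn6*+/mev mice and at 58.75 to 63.12 in wild-type mice, a narrow gap with no overlap (log2 fold change -0.24).

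The remaining shuttle genes overlapped between groups. *Slc25a20*, the carnitine-acylcarnitine carrier of the inner membrane, had a log2 fold change of -0.33, and carnitine acetyltransferase *Crat* one of -0.32, and these became -0.14 and -0.18 without wild-type replicate 2. *Cpt1b*, the muscle form of CPT1, was much less abundant, at 7.08, 5.43 and 6.67 FPKM in *Ptpn6*+/mev mice and 5.49, 14.02 and 5.52 in wild-type mice. Wild-type replicate 2 alone was high, and the log2 fold change of -0.54 turned to 0.11 without it. In the GENCODE annotation 81.4% of the exonic bases of *Cpt1b* are shared with another gene on the same strand, so its counts are uncertain. Over the 6 shuttle genes the median log2 fold change was -0.32 and, without wild-type replicate 2, -0.16.

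Among the activation enzymes the most abundant and a scarcer relative differed. *Acsm2*, a medium-chain acyl-CoA synthetase, was the most abundant of the 35 genes and made up 18.1% to 26.6% of their summed FPKM. It measured 994.35, 885.52 and 975.91 FPKM in *Ptpn6*+/mev mice and 939.67, 828.73 and 833.19 in wild-type mice, overlapping, with a log2 fold change of 0.08 and a 95% interval from -0.17 to 0.34. *Acsm1* (chr7:119607026-119662515, plus strand), beside it on chromosome 7, a synthetase of the same family that acts on short and medium chains, measured 20.31, 28.45 and 23.22 FPKM in *Ptpn6*+/mev mice and 49.02, 37.96 and 31.58 in wild-type mice. The groups were apart, and the *Ptpn6*+/mev mean was 60.7% of the wild-type mean. Its log2 fold change was -0.78 ± 0.19 (SE, n = 3 per group), with an adjusted p of 0.15 in edgeR's quasi-likelihood test. Over the 15 alternatives the adjusted p ranged from 0.00939 in DESeq2 to 0.528. Wild-type replicate 2 was not the highest library for *Acsm1*, and without it the value was again -0.78.

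The long-chain synthetases *Acsl1*, *Acsl3* and *Acsl5* overlapped between groups. *Acsl1* had a log2 fold change of -0.02 (0.06 on the FPKM scale) and *Acsl3* one of -0.28 (-0.11 without wild-type replicate 2). *Acsl5* measured 62.12, 60.00 and 63.53 FPKM in *Ptpn6*+/mev mice and 47.74, 63.21 and 53.79 in wild-type mice. The log2 fold change was 0.17 over all libraries and 0.45 without wild-type replicate 2, the library in which it reached the *Ptpn6*+/mev level. *Acsm3*, at 9.13 to 29.61 FPKM in wild-type mice, varied too widely within that group to rank, and 39.7% of its exonic bases are shared with *Eri2* on the opposite strand. *Acsm5* had a log2 fold change of -0.01 (0.18 to 0.20 on the FPKM scale). Over the 7 activation genes the median was -0.02 (0.06 at most on the FPKM scale), and it was 0.09 without wild-type replicate 2, the only step whose median turned positive there. This median was -0.20 without *Ptpn6*+/mev replicate 1 and 0.09 without *Ptpn6*+/mev replicate 2.

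The acyl-CoA dehydrogenases, which start each round of beta-oxidation and differ in the chain length they take, held 5 of the 14 genes at an unadjusted p under 0.05, 5 of 8 against 6.71% of all tested genes. *Acad10* (chr5:121621026-121660514, minus strand), a less studied dehydrogenase, had the lowest adjusted p of the 35 genes. It measured 9.53, 10.38 and 9.24 FPKM in *Ptpn6*+/mev mice and 14.16, 15.29 and 12.67 in wild-type mice. The groups were apart and each varied little: the log2 fold change was -0.61 ± 0.12 (SE, n = 3 per group), with an adjusted p of 0.104 in edgeR's quasi-likelihood test. Its relative *Acad11* (chr9:104063377-104127725, plus strand) measured 32.81, 32.02 and 30.75 FPKM in *Ptpn6*+/mev mice and 44.31, 54.34 and 37.98 in wild-type mice. Here the wild-type mice spread more than the *Ptpn6*+/mev mice, and the log2 fold change was -0.60 ± 0.16 (SE, n = 3 per group), with an adjusted p of 0.177 in edgeR's quasi-likelihood test.

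The dehydrogenases of straight chains had log2 fold changes from -0.48 to -0.06 with overlapping 95% intervals, and differences between these genes were not tested. *Acadvl*, for very long chains, measured 188.32, 178.41 and 182.23 FPKM in *Ptpn6*+/mev mice and 244.48, 271.34 and 209.51 in wild-type mice. The groups were apart, with a log2 fold change of -0.48 ± 0.12 (SE, n = 3 per group) and an adjusted p of 0.176 in edgeR's quasi-likelihood test. Of its exonic bases 42.9% are shared with *Dvl2* on the opposite strand, and whether counting used strand is not given in the sources used here. *Acads*, for short chains, was at 79.43 to 84.93 FPKM in *Ptpn6*+/mev mice and 93.69 to 106.12 in wild-type mice, apart, with a log2 fold change of -0.33. *Acadl*, for long chains, had a log2 fold change of -0.26 (-0.13 without wild-type replicate 2) with *Ptpn6*+/mev replicate 1 inside the wild-type range. *Acadm*, for medium chains, measured 107.59, 94.23 and 92.68 FPKM in *Ptpn6*+/mev mice and 94.52, 109.99 and 85.76 in wild-type mice, with complete overlap and a log2 fold change of -0.06 (0.03 on the FPKM scale). Within each mouse, FPKM of *Acadvl* was 1.75 to 1.97 times that of *Acadm* in *Ptpn6*+/mev mice and 2.44 to 2.59 times in wild-type mice. That pair was picked after its values were seen.

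*Acad9*, which also serves in the assembly of respiratory complex I, had a log2 fold change of -0.23, and wild-type replicate 2 was its lowest wild-type library at 35.88 FPKM. *Acadsb*, for short and branched chains, had a log2 fold change of 0.10 (0.25 without wild-type replicate 2). Over the 8 dehydrogenases the median log2 fold change was -0.29 with all libraries and -0.27 without wild-type replicate 2, the step least moved by that library.

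**Figure D2:**
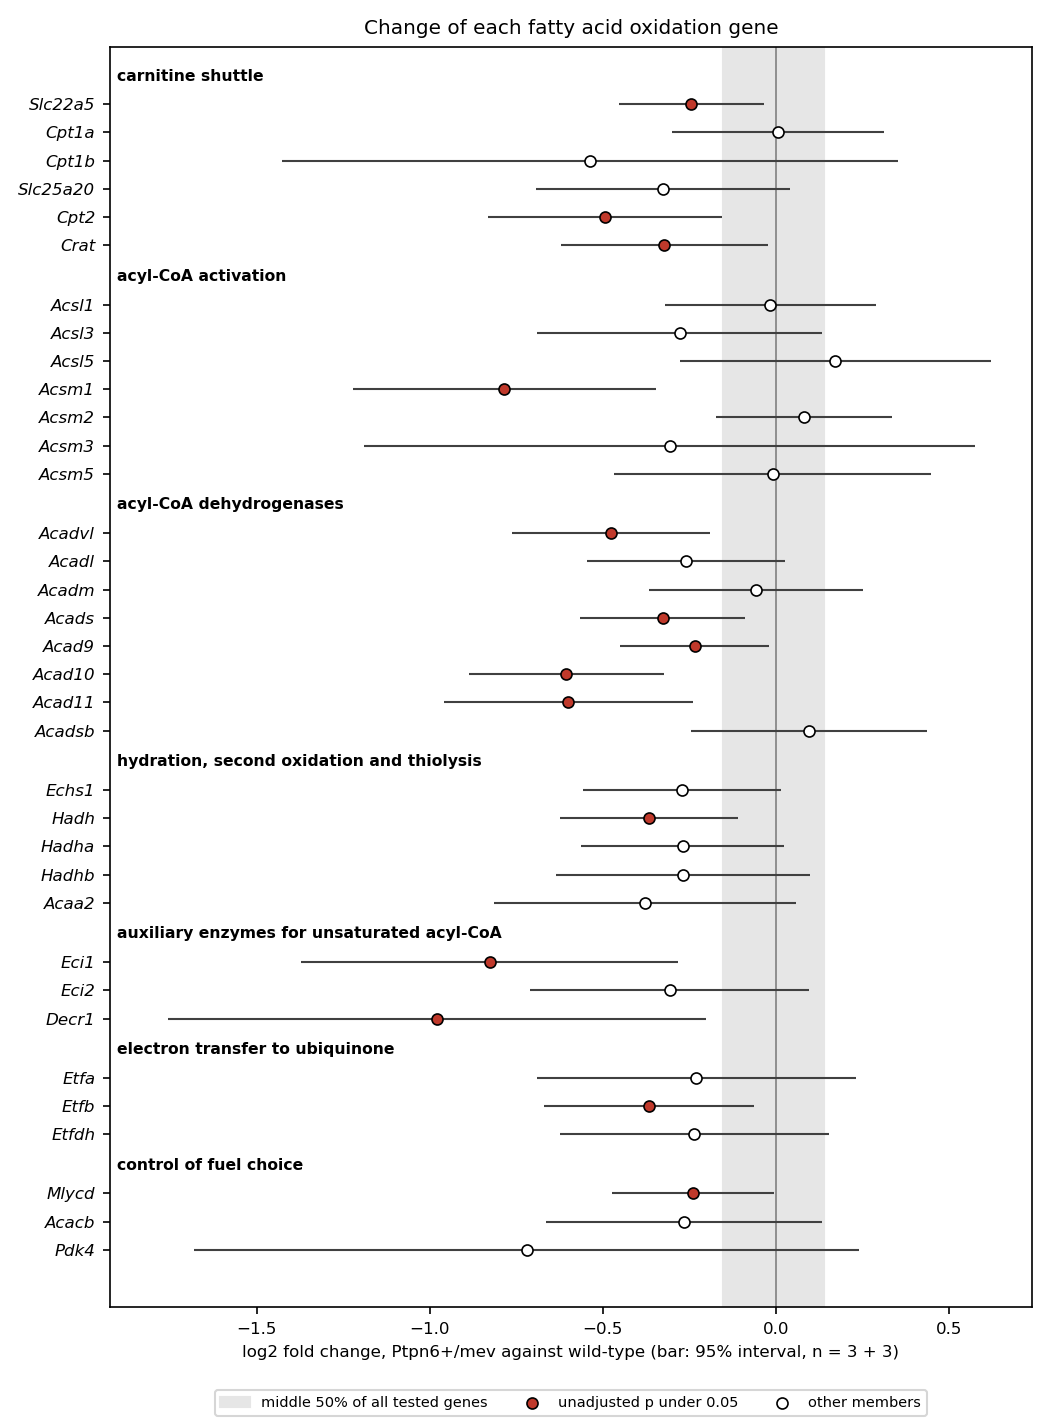
Points are log2 fold changes from edgeR's quasi-likelihood fit and bars their 95% intervals, with genes grouped by step and the middle 50% of all tested genes shaded (-0.153 to 0.139). Filled points mark the 14 genes at an unadjusted p under 0.05, all of them lower, and the widest intervals belong to *Cpt1b*, *Acsm3*, *Decr1* and *Pdk4*.

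For hydration, the second oxidation and thiolysis the 5 genes gave similar values, with log2 fold changes from -0.38 to -0.27. *Hadh*, the 3-hydroxyacyl-CoA dehydrogenase of short and medium chains, measured 174.09, 171.92 and 166.23 FPKM in *Ptpn6*+/mev mice and 218.24, 225.21 and 184.00 in wild-type mice. It was the only one of the 5 at an unadjusted p under 0.05 in edgeR's quasi-likelihood test, and its adjusted p was 0.235. *Hadha* and *Hadhb* encode the subunits of the trifunctional protein, which carries out these steps on long chains, and lie side by side on chromosome 5. Both had a log2 fold change of -0.27, which became -0.12 for *Hadha* and -0.06 for *Hadhb* without wild-type replicate 2. *Hadha* was at 74.86 to 78.33 FPKM in *Ptpn6*+/mev mice and 80.30 to 100.89 in wild-type mice, just apart, while *Hadhb* overlapped at 114.12 to 122.87 and 115.85 to 165.74. The hydratase *Echs1* had a log2 fold change of -0.27 and the thiolase *Acaa2* one of -0.38, with overlapping groups, and these became -0.14 and -0.16 without wild-type replicate 2. Wild-type replicate 2 was the highest library for all 5, and without it the median of the step was -0.14.

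The auxiliary enzymes, which bring the double bonds of unsaturated fatty acids into the form that beta-oxidation can use, had the lowest median of any step, -0.83. *Decr1* (chr4:15917240-15945507, minus strand), a dienoyl-CoA reductase, measured 51.35, 56.02 and 51.99 FPKM in *Ptpn6*+/mev mice and 81.35, 155.09 and 58.29 in wild-type mice. The *Ptpn6*+/mev mice lay close together while the wild-type mice spread widely, and wild-type replicate 2 held 2.22 times the mean of the other 2 wild-type mice. The log2 fold change was -0.98 ± 0.34 (SE, n = 3 per group), with an adjusted p of 0.295 in edgeR's quasi-likelihood test, and was -0.44 without that library. *Eci1*, an enoyl-CoA isomerase, measured 77.73, 80.15 and 75.64 FPKM in *Ptpn6*+/mev mice and 129.85, 172.91 and 88.33 in wild-type mice. It showed the same order of wild-type mice, with a log2 fold change of -0.83 ± 0.24 (SE, n = 3 per group) and an adjusted p of 0.208 in edgeR's quasi-likelihood test. It was -0.53 without wild-type replicate 2. *Eci2*, the other isomerase, overlapped, with a log2 fold change of -0.31 that became -0.09 without that library. Summed over the 3 genes, FPKM was 240.5, 237.2 and 245.6 in *Ptpn6*+/mev mice and 337, 491 and 251.2 in wild-type mice. Wild-type replicate 3 was thus close to the *Ptpn6*+/mev mice, and the median of the step was -0.44 without wild-type replicate 2.

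**Figure D3:**
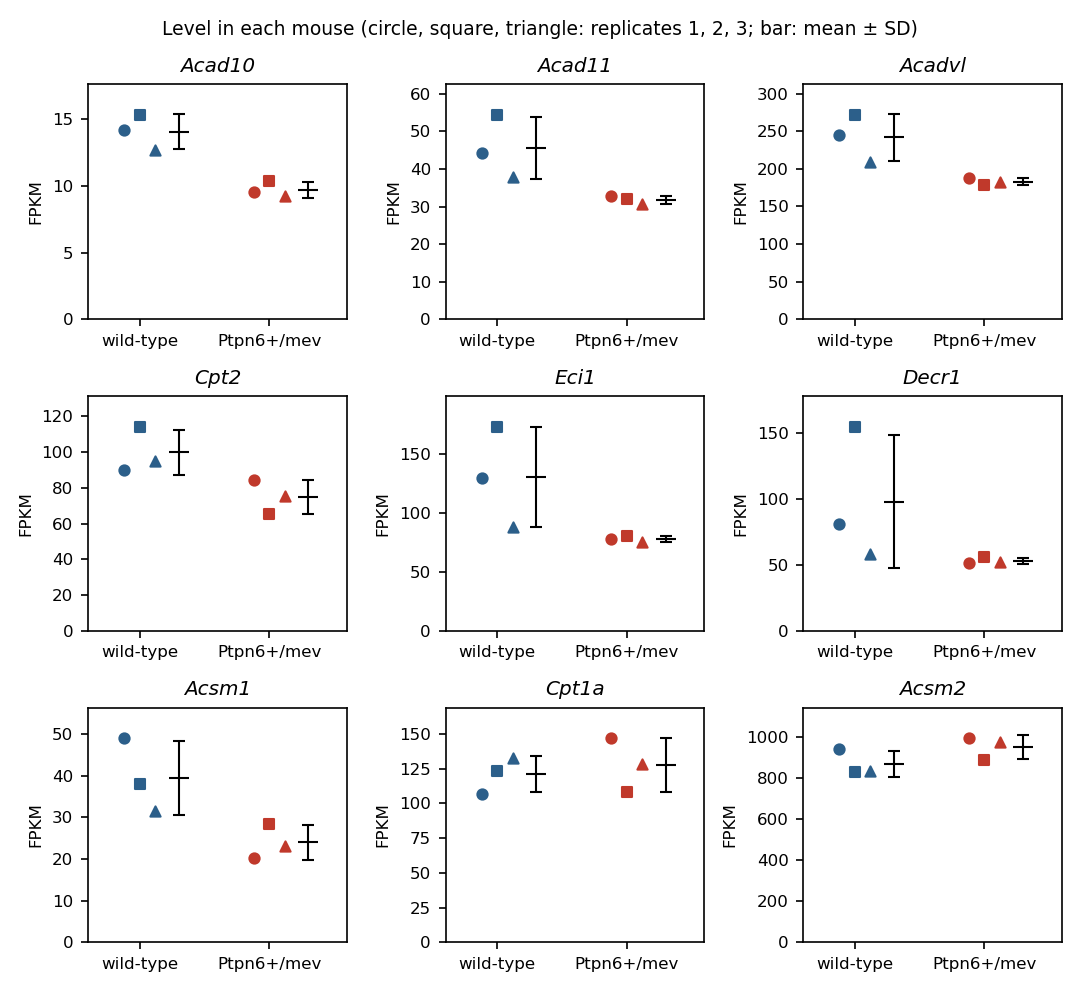
FPKM of 9 genes in each mouse, with axes from 0, points for the replicates and a bar for the mean ± SD of each group (n = 3). *Acad10*, *Acad11*, *Acadvl*, *Cpt2*, *Eci1*, *Decr1* and *Acsm1* are lower in the *Ptpn6*+/mev mice without overlap, *Decr1* and *Eci1* spread widely among the wild-type mice, and *Cpt1a* and *Acsm2* overlap.

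The subunits of electron transfer flavoprotein differed in overlap. *Etfb*, the beta subunit of electron transfer flavoprotein, measured 390.13, 410.95 and 396.16 FPKM in *Ptpn6*+/mev mice and 538.95, 529.08 and 412.76 in wild-type mice. The groups were apart only narrowly, through wild-type replicate 3, and the log2 fold change was -0.37. The gene shares 53.0% of its exonic bases with another gene on the same strand. *Etfa*, the alpha subunit, measured 136.89, 131.04 and 135.19 FPKM in *Ptpn6*+/mev mice and 119.03, 196.37 and 131.22 in wild-type mice. Wild-type replicate 2 alone was high, the other 5 libraries lay between 119.03 and 136.89, and the log2 fold change of -0.23 became 0.06 without replicate 2. *Etfdh*, the oxidoreductase that hands the electrons to ubiquinone, had a log2 fold change of -0.24 with overlap, and -0.03 without wild-type replicate 2.

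The 3 genes that set the choice of fuel overlapped between groups. *Mlycd* removes malonyl-CoA, the inhibitor of CPT1, and *Acacb* makes it at the mitochondrion. *Mlycd* was at 27.58 to 33.15 FPKM in *Ptpn6*+/mev mice and 32.64 to 36.65 in wild-type mice, with a log2 fold change of -0.24. *Acacb* was at 2.20 to 3.42 and 2.99 to 4.18 FPKM, with a log2 fold change of -0.27 (95% interval -0.66 to 0.13), and from -0.44 without *Ptpn6*+/mev replicate 1 to -0.16 without *Ptpn6*+/mev replicate 2 when a library was left out. *Pdk4*, the kinase that shuts off pyruvate dehydrogenase when fatty acids are burned, measured 31.16, 21.81 and 41.58 FPKM in *Ptpn6*+/mev mice and 30.53, 81.90 and 33.11 in wild-type mice. Wild-type replicate 2 alone was high, and the log2 fold change of -0.72 was -0.05 without it.

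**Figure D4:**
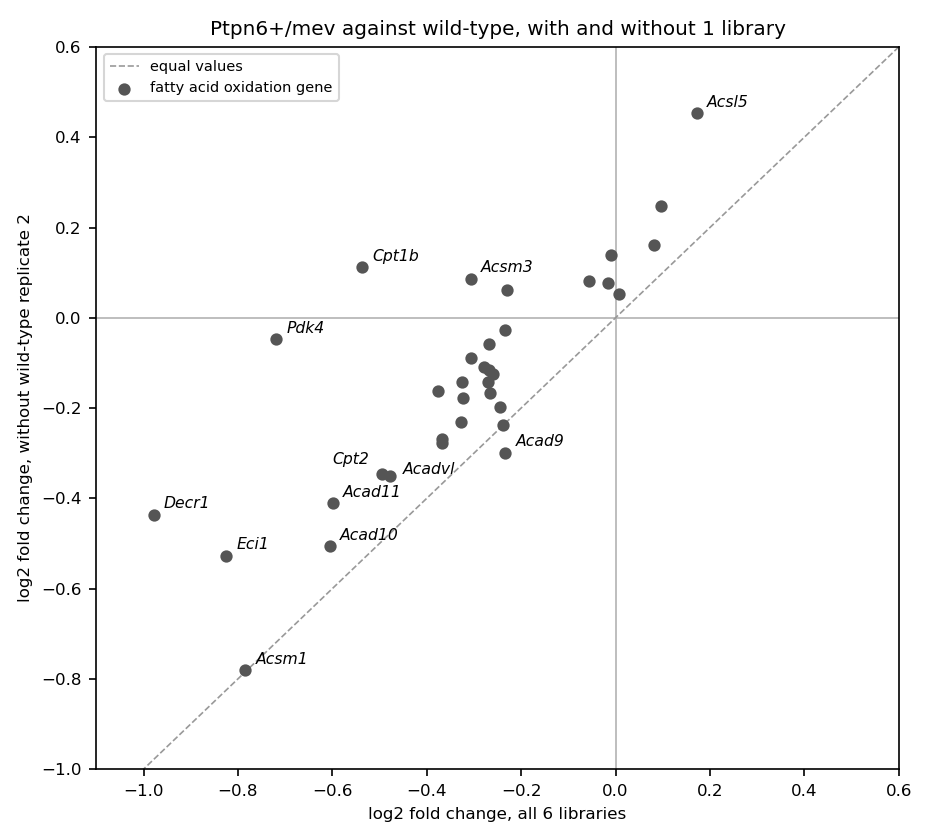
Each point is 1 of the 35 genes, with its log2 fold change over all 6 libraries on the horizontal axis and without wild-type replicate 2 on the vertical axis; the dashed line marks equal values. *Acsm1* and *Acad10* lie on or near the line, while *Pdk4*, *Cpt1b* and *Decr1* lie far above it.

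Other genes of the pathway were read from a list of 40 ordered by role, of which 39 were in the table and *Acsm4* was at 0 in every library. Of 36 tested, 34 had a log2 fold change below 0 (28 without wild-type replicate 2), 14 were lower and 0 higher at an unadjusted p under 0.05 (against 6.71% and 5.53% of all tested genes), and 0 passed the threshold on the adjusted p of edgeR's quasi-likelihood test. DESeq2 called 6 of them lower, against 1.88% of all tested genes, and edgeR's exact test 3, against 1.78%. *Ppara*, the receptor itself, measured 15.73, 12.34 and 16.14 FPKM in *Ptpn6*+/mev mice and 22.23, 28.94 and 21.79 in wild-type mice. These groups were apart, with a log2 fold change of -0.81 ± 0.17 (SE, n = 3 per group) and an adjusted p of 0.104 in edgeR's quasi-likelihood test. Without wild-type replicate 2 the value was -0.66 (adjusted p = 0.0403, range over the alternatives 0.00156 to 0.417). *Esrra*, the most abundant regulator on the list, had a log2 fold change of -0.05. *Ech1*, a dienoyl-CoA isomerase and the most abundant enzyme of the list, measured 256.00, 295.14 and 280.98 FPKM in *Ptpn6*+/mev mice and 445.78, 523.63 and 308.98 in wild-type mice. Its wild-type mice were in the order seen for *Eci1* and *Decr1*, with wild-type replicate 3 nearest to the *Ptpn6*+/mev mice, and its log2 fold change was -0.70 (-0.49 without wild-type replicate 2). *Acsf2*, a medium-chain synthetase named after its values were seen, had the lowest log2 fold change of the 36, -0.96. It was at 9.27 to 11.29 FPKM in *Ptpn6*+/mev mice and 13.91 to 25.19 in wild-type mice, apart, with an adjusted p of 0.162 in edgeR's quasi-likelihood test, 0.00939 in its exact test and 0.00839 in DESeq2. Without wild-type replicate 2 it was -0.63, with an adjusted p of 0.0393 in the quasi-likelihood test (range over the alternatives 0.00839 to 0.541). *Hibch*, an enzyme of valine breakdown also named after its values were seen, had a log2 fold change of -0.74, and -0.34 without that library.

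The most abundant genes of the remaining roles had smaller differences. The log2 fold change was -0.32 for *Aldh9a1* (carnitine synthesis), -0.35 for the transporter *Slc22a4*, -0.27 for *Acsf3* (malonyl-CoA synthetase), -0.41 for *Gcdh* (glutaryl-CoA dehydrogenase, of lysine breakdown), -0.38 for *Pccb* (propionyl-CoA carboxylase) and -0.32 for *Pdk2*. All 4 of the other acyl-CoA dehydrogenases on the list, which include those of amino acid breakdown, were apart and lower, against 6.38% of all tested genes. For comparison, 22 other mitochondrial genes, of the citric acid cycle and oxidative phosphorylation and with the outer-membrane channel *Vdac1*, had log2 fold changes below 0 in 22 cases over all libraries and in 17 without wild-type replicate 2, with a median of -0.158 (-0.142 without it), and 5 of them were lower at an unadjusted p under 0.05, against 6.71% of all tested genes. In FPKM 9 of the 22 were apart and lower, against 6.38% of all tested genes. Summed FPKM of the 22 was 6875 to 7333 in *Ptpn6*+/mev mice and 7440 to 7764 in wild-type mice. A difference between them and the 35 genes was not tested.

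Proximal tubule markers were also mostly lower. Of 12 proximal tubule markers 11 had a log2 fold change below 0, with a median of -0.452 (-0.523 without wild-type replicate 2). In edgeR's quasi-likelihood test 7 were lower at an unadjusted p under 0.05 (against 6.71% of all tested genes), and 0 passed the threshold on the adjusted p. edgeR's exact test and DESeq2 both called *Slc22a6*, *Slc13a3*, *Cubn* and *Miox* lower, against 1.78% and 1.88% of all tested genes. The log2 fold changes of these genes were -1.11, -1.25, -0.84 and -0.46. The 12 markers summed to 888.3 to 1032 FPKM in *Ptpn6*+/mev mice and 1198 to 1404 in wild-type mice, which did not overlap, although *Slc34a1*, the most abundant, overlapped at 192.76 to 256.19 and 175.57 to 312.71. That overlap came from wild-type replicate 2, the lowest library, and the log2 fold change of *Slc34a1* went from -0.34 to -0.55 without it (edgeR's quasi-likelihood test, adjusted p = 0.0508, the lowest of the alternatives, up to 0.862). Without that library *Slc22a6*, *Lrp2*, *Miox*, *Slc13a3* and *Cubn* passed the threshold as lower in the same test, against 1.09% of genes. Their adjusted p was then 0.0274 to 0.0465, and it reached 0.394 to 0.712 with another library left out. Of 9 tubular injury markers 4 were higher and 1 lower at an unadjusted p under 0.05 in edgeR's quasi-likelihood test (against 5.53% and 6.71% of all tested genes). The 4 higher were *Havcr1*, *Krt8*, *Krt18* and *Vcam1*, with groups apart and log2 fold changes of 0.27, 0.28, 0.55 and 1.05. The 1 lower was *Spp1*, the most abundant, whose groups overlapped (log2 fold change -0.38, and -0.22 without wild-type replicate 2). *Vcam1* passed the threshold as higher in edgeR's exact test (adjusted p = 0.0184) and DESeq2 (0.0125), and *Krt18* in DESeq2 (0.0487). These tests called 390 and 387 of 13036 genes in either direction. Without wild-type replicate 2 *Krt18* (adjusted p = 0.0376) and *Krt20* (0.0287) passed as higher in the quasi-likelihood test, against 0.706% of genes. With another library left out these reached 0.586 and 0.989. Over all libraries *Krt20* overlapped (log2 fold change 0.16). Of 9 distal nephron and collecting duct markers 8 were below 0, with a median log2 fold change of -0.193. Without wild-type replicate 2 that median was 0.071, and 7 of the 9 were above 0. In the quasi-likelihood test *Slc12a3* (-0.43) and *Scnn1g* (-0.34) were lower at an unadjusted p under 0.05, against 6.71% of all tested genes. Their groups were apart, and without wild-type replicate 2 they were at -0.40 and -0.25. The part of tubular cell number and of injury in the values of the 35 genes was not tested.

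Wild-type replicate 2 differed in other cell types too. Its 7 endothelial markers summed to 93.52 FPKM, against 239.4 to 271.5 in the other 5 libraries, with *Plvap* at 40.30 against 110.51 or more. Its 9 macrophage markers summed to 114 FPKM, against 176.3 to 280.1, with *Lyz2* the most abundant. Of 9 distal nephron and collecting duct markers it was the highest of the 6 libraries for 6, and it held 3.95 times the mean of the other 2 wild-type mice for *Kcnj1*, 3.10 times for *Aqp2*, 2.77 times for *Calb1* and 2.74 times for *Slc12a1*, genes named after their values were seen. The 9 summed to 2128 to 3012 FPKM in *Ptpn6*+/mev mice and 2560 to 3015 in wild-type mice, a sum made up mostly of *Umod*, which was not raised in that library (1.00 times). Neutrophil markers, led by *S100a9*, overlapped between genotypes at 22.83 to 53.54 and 25.34 to 41.6 FPKM. Adipocyte markers, led by *Cfd*, summed to 72.33, 95.49 and 79.19 FPKM in *Ptpn6*+/mev replicate 1 and wild-type replicates 1 and 3, and to 0.92 to 11.7 in the other 3 libraries. Skeletal muscle markers summed to at most 0.76, with *Myh4* and *Tnnt3* at 0 in every library. The part of these cells in the high values of wild-type replicate 2 was not tested.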

How the data were processed

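Paired reads came from poly-A RNA of the left kidney. The authors mapped them with TopHat (GRCm38.p5) and derived FPKM through Cufflinks, and the submitters' processing notes also name Bowtie2 and RSEM. The authors deposited 1 table with an expected count and an FPKM value for each gene and library, and with pathway annotation. Expected counts were fractional in 1744 genes, among them 5 of the 35 (*Slc22a5*, *Acsm3*, *Acadvl*, *Acad10* and *Acad11*), and were rounded. Levels per mouse are the deposited FPKM. All columns of per-sample values were matched to samples by name.

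The genotypes were compared on the rounded counts by edgeR's quasi-likelihood test (edgeR 4.0.16, R 4.3.3, TMM, filterByExpr, genotype only), with Benjamini-Hochberg adjustment over 13036 genes and a threshold of 0.05. Alternatives were DESeq2 1.42.0, its size factors, upper quartile normalization, edgeR's exact test, limma 3.58.1 on log2 of FPKM plus 1 or 0.1, no filter, at least 10 counts in every library, TMM-scaled CPM for overlaps, a replicate block, and leaving out each library. On simulated data of 13036 genes for this comparison the quasi-likelihood test recovered 72% of 2-fold and 95.8% of 4-fold changes. The 35 genes had log2 fold changes of -0.979 to 0.172, all smaller than 2-fold, and recovery of smaller changes was not simulated. No simulated library was made to stand apart. Counts of overlapping groups with a library left out were chosen after seeing the data.

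Members and gene lists were chosen with earlier results of these data known. Genes named are the 35, *Ptpn6*, *Ppara* and the most abundant gene of each role or marker list. *Acsm4*, *Eri2*, *Dvl2*, *Vdac1*, *Myh4* and *Tnnt3* were added where a result touches them, and *Acsf2*, *Hibch*, *Kcnj1*, *Aqp2*, *Calb1* and *Slc12a1* after their values were seen. The proximal tubule markers *Slc22a6*, *Slc13a3*, *Cubn*, *Miox* and *Lrp2* and the injury markers *Havcr1*, *Krt8*, *Krt18*, *Krt20* and *Vcam1* were also named after their values were seen. So were the distal markers *Slc12a3* and *Scnn1g*. Shared exons come from GENCODE M21 (GRCm38) and promoters from RefSeq (GRCm38.p6). Mice are the replicates, and libraries of a group differed by 6.48 to 45.3 in chi-square per degree of freedom, far above sampling noise.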

Additional observations from a re-analysis of the deposited data

How the results depend on the processing

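Under 15 alternatives the median log2 fold change of the 35 genes stayed negative, from -0.380 to -0.142 with a library left out and from -0.279 to -0.207 otherwise. The count of the 35 called lower at an adjusted p under 0.05 was 0 over all libraries, 4 in edgeR's exact test, 5 in DESeq2 and 0 to 1 with a library left out (against up to 1.09% of all tested genes), and the count called higher was 0 to 1 (up to 0.706%). At an unadjusted p under 0.05, leaving out a library gave 8 to 21 lower (4.55% to 8.89% of all tested genes) and 0 to 1 higher (3.45% to 8.36%), where all libraries gave 14 and 0; *Ptpn6*+/mev replicate 3 was missing at the lowest count and wild-type replicate 3 at the highest. Genes whose groups did not overlap then numbered 12 to 21 lower, against 8.29% to 14.3% of all tested genes, and 0 to 3 higher, against 17.9% to 23.3%. The 3 higher were without wild-type replicate 2, where 21.1% of all tested genes were apart and higher. For the other pathway genes, those called lower at an adjusted p numbered 6 in DESeq2 (1.88% of all tested genes), 3 in edgeR's exact test (1.78%) and 0 to 2 with a library left out (up to 1.09%), and those at an unadjusted p 9 to 19 with a library left out. For the 22 other mitochondrial genes the count at an unadjusted p was 0 to 10 with a library left out, both against the 4.55% to 8.89% above. The cause of these shifts was not tested.

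Of 35 genes, 26 kept their sign in every alternative. On the FPKM scale, with pseudocounts of 1 and 0.1, the sign turned for *Acsl1* (0.058 and 0.059), *Acsm5* (0.179 and 0.196) and *Acadm* (0.025 and 0.025). With a library left out the log2 fold change ranged from -0.106 to 0.112 for *Cpt1a*, from -0.12 to 0.088 for *Acsl1*, from -0.018 to 0.162 for *Acsm2*, from -0.678 to 0.087 for *Acsm3*, from -0.203 to 0.139 for *Acsm5*, from -0.158 to 0.081 for *Acadm*, from -0.001 to 0.247 for *Acadsb* and from -0.386 to 0.062 for *Etfa*. For *Cpt1b* it ranged from -0.786 to 0.113. None of these 9 was called in the fit over all libraries, in which none of the 35 was.

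Same-numbered libraries did not vary together: their deviations correlated at -0.144, -0.184 and -0.13, against -0.01 to 0.158 for libraries with different numbers. Whether mice were paired by litter or surgery cannot be told from these values. With the replicate number as a block, 11 of the 35 were lower at an unadjusted p under 0.05, against 5.24% of all tested genes, 0 were called at an adjusted p, and the median was -0.271. With 3 mice per group a permutation of 1 gene's values cannot give a p below 0.1.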

Other observations

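In the pathway annotation of the deposited table, 8 of the 35 genes belong to PPAR signaling: *Cpt1a*, *Cpt1b*, *Cpt2*, *Acsl1*, *Acsl3*, *Acsl5*, *Acadl* and *Acadm*. Of these, *Cpt2* was the 1 lower at an unadjusted p under 0.05 in edgeR's quasi-likelihood fit, against 6.71% of all tested genes, and their median log2 fold change was -0.158 (0.064 without wild-type replicate 2). Of the other 27 genes 13 were lower at that p, against the same 6.71%, with a median of -0.307 (-0.166 without that library). The difference between these groups of genes was not tested.

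Levels of enzymes that act in sequence or as alternatives were also set against each other within each mouse, with pairs chosen after the values were seen. FPKM of *Cpt2* over that of *Cpt1a* was 0.574 to 0.605 in *Ptpn6*+/mev mice and 0.719 to 0.928 in wild-type mice, and *Eci1* over *Eci2* was 0.641 to 0.794 and 0.845 to 1.06, neither pair overlapping. *Hadha* over *Hadhb* overlapped at 0.638 to 0.656 and 0.609 to 0.693, as did *Etfb* over *Etfa* at 2.85 to 3.14 and 2.69 to 4.53.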
